A study of Mus musculus with 6 samples.

Results

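The genes described here mark position along the small intestine. They are 10 of the 48440 genes in the files and were chosen by name: 5 genes of the duodenum and jejunum (*Pdx1*, *Onecut2*, *Gata4*, *Lct* and *Cybrd1*) and 5 genes of the ileum (*Fabp6*, *Slc10a2*, *Fgf15*, *Slc51a* and *Slc51b*). Their RNA was sequenced from adenomas of the small intestine, with 3 libraries from *Apc* Min, PC del mice (QC3, QC8 and QC10) and 3 from *Apc* Min, WT mice (QC4, QC5 and QC6). PC del mice carried *Defa4-Cre*, a knock-in that expresses Cre from the *Defa4* locus of the Paneth cell (PC) lineage, together with 1 *Rosa26* allele whose diphtheria toxin subunit is switched on by Cre (*Rosa26* iDTA/WT). The WT controls were littermates with the same *Rosa26* iDTA/WT allele and no Cre. Mice of both groups carried *Apc* Min on a C57BL/6 background and were more than 42 days old. The *Defa4-Cre* allele was made in 129/svJ embryonic stem cells and later backcrossed. The labels give neither the position along the gut from which each adenoma was taken nor the number of mice or adenomas behind a library, so that p-values measure only the spread between these libraries, which may be technical. Library depth, in gigabases of aligned sequence, was 5.72 (QC4), 5.64 (QC5), 5.68 (QC6), 5.41 (QC3), 5.61 (QC8) and 5.88 (QC10).

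Expression along the small intestine is regional. The transcription factors Pdx1, Onecut2 and Gata4 are active in its proximal segments, where Gata4 keeps ileal genes, *Slc10a2* among them, at a low level, and where lactase (*Lct*) digests milk sugar and Cybrd1 reduces dietary iron at the brush border. The ileum reclaims bile acids: Slc10a2 takes them up from the lumen, Fabp6 binds them in the cytosol, the Slc51a and Slc51b heterodimer exports them to the portal blood, and bile acids acting through the nuclear receptor FXR (*Nr1h4*) induce the hormone *Fgf15*, which lowers bile acid synthesis in the liver.

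The comparison asked whether adenomas of the 2 genotypes were balanced along this axis. All 5 ileal genes had their 2 highest values in QC8 and QC10, which are PC del libraries, while the third PC del library, QC3, lay within or below the WT range in all 5. No gene of the 10 passed an adjusted p of 0.05 in limma (Benjamini-Hochberg over 14240 genes), against 0.0140% of all genes tested, and 0 of 10 had an unadjusted p under 0.05, against 3.38%. The groups overlapped in 10 of 10 genes, whereas they did not overlap in 7.54% of all genes tested. Having QC8 and QC10 as the 2 highest libraries, seen in 5 of 5 ileal and 0 of 5 proximal genes, was found in 7.69% of all genes tested. *Fgf15* passed the filter on low values only through these libraries, so its place in the count was fixed, and without it the count was 4 of 4 ileal genes. This count and those below that single out QC3, QC8 or QC10 were chosen after the values were seen.

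*Fabp6*, the ileal bile acid binding protein (ENSMUSG00000020405.4, GRCm38 chromosome 11, 43596049 to 43601540, minus strand), had an FPKM of 8.22, 23.6 and 2.39 in QC4, QC5 and QC6, which are WT. In the PC del libraries it had an FPKM of 6.19 in QC3, 1477 in QC8 and 630.2 in QC10. QC8 and QC10 stood far above the rest, the lower of them 26.7-fold above the next library, and QC3 lay between the lowest and the highest WT library. Ranked among all genes of its library, *Fabp6* was 28th in QC8 and 108th in QC10, but 9144th in QC3 and 7895th, 3801st and 11771st in QC4, QC5 and QC6. The group means were 704.5 ± 738 FPKM in PC del and 11.4 ± 11 FPKM in WT (SD, n = 3 each; exact two-sided permutation p = 0.3, where 0.1 is the smallest possible). On the log2(FPKM + 1) scale the PC del libraries were higher by 4.36 (SE 1.95, 95% confidence interval −0.31 to 9.03; limma adjusted p = 1.0). Without QC3 the difference was 6.72 (limma adjusted p = 0.271, the lowest for this gene over the alternatives tried, which reached 1.0). It was 2.88 without QC8 and 2.82 with limma's array quality weights. In bulk tissue, fewer cells that express a gene and less of its RNA per cell cannot be told apart.

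*Slc10a2*, the apical bile acid transporter (ENSMUSG00000023073.2, chromosome 8, 5083219 to 5105351, minus strand), had an FPKM of 5.14, 6.41 and 0.905 in QC4, QC5 and QC6, and of 1.99, 36.3 and 13.0 in QC3, QC8 and QC10. The 6 libraries stood in the same order as for *Fabp6*: QC8, QC10, QC5, QC4, QC3 and QC6. Means were 17.1 ± 17.5 FPKM in PC del and 4.15 ± 2.88 FPKM in WT (n = 3 each, exact permutation p = 0.3), a log2 difference of 1.39 (SE 0.95, interval −0.88 to 3.66). That difference was 2.37 without QC3, 0.55 without QC8 and 0.63 with array quality weights. A single library thus moved it by more than 1.5-fold either way. *Fabp6* exceeded *Slc10a2* by 40.7-fold in QC8 and 48.6-fold in QC10, and by 1.60- to 3.68-fold in the other 4 libraries (ratios of FPKM).

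The basolateral exporter subunits were expressed in every library. *Slc51a* (ENSMUSG00000035699.7, chromosome 16, 32475522 to 32487879, minus strand) had an FPKM of 53.8, 50.7 and 57.3 in QC4, QC5 and QC6, and of 40.9, 116.7 and 104.6 in QC3, QC8 and QC10. *Slc51b* (ENSMUSG00000053862.5, chromosome 9, 65412753 to 65422773, minus strand) had 48.5, 44.3 and 60.9 in QC4, QC5 and QC6, and 41.4, 137 and 135 in QC3, QC8 and QC10. For both subunits QC3 was the lowest library of the 6, below every WT library, and QC8 and QC10 were the highest. The ratio of *Slc51a* to *Slc51b* FPKM stayed between 0.775 and 1.14 over the 6 libraries. The log2 difference was 0.55 (SE 0.38, interval −0.35 to 1.46) for *Slc51a*, with means of 87.4 ± 40.7 FPKM in PC del and 53.9 ± 3.32 FPKM in WT. For *Slc51b* it was 0.84 (SE 0.46, interval −0.25 to 1.93), with means of 104.5 ± 54.7 and 51.2 ± 8.65 FPKM (exact permutation p = 0.4 for either gene, n = 3 each). Without QC3 these differences were 1.02 for *Slc51a* and 1.40 for *Slc51b* (limma adjusted p = 0.295 and 0.251), and the adjusted p reached 1.0 in other alternatives. Without QC8 they were 0.28 for *Slc51a* and 0.55 for *Slc51b*. GENCODE places *Pcyt1a* over *Slc51a* and *Rasl12* over *Slc51b* on the opposite strand. Their FPKM was 11.5 to 27.6 for *Pcyt1a*, highest in QC5, and 0.598 to 0.795 for *Rasl12*, and whether strand was used in counting is not given in the sources used here.

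*Fgf15*, the hormone (ENSMUSG00000031073.6, chromosome 7, 144896531 to 144900953, plus strand), was low outside QC8 and QC10. It was listed at 0 in QC6 and had an FPKM of 0.409 in QC4, 0.739 in QC5 and 0.0179 in QC3, against 12.7 in QC8 and 1.97 in QC10. The order of the libraries was again that of *Fabp6*. The gene passed the filter of a mean FPKM of at least 1 only through QC8 and QC10, which places it among the genes tested for the pattern it shows. Group means were 4.90 ± 6.84 FPKM in PC del and 0.383 ± 0.370 FPKM in WT (n = 3 each, exact permutation p = 0.3), a log2 difference of 1.36 (SE 0.87, interval −0.71 to 3.43). Adding 1 before the logarithm makes such a difference smaller than the ratio of the FPKM values, and with 0.1 in its place the difference was 2.06 (SE 1.7). With 1 added, it was 2.24 without QC3 and 0.37 without QC8. The antisense gene *Gm26793*, which overlaps *Fgf15*, did not exceed 0.0443 FPKM, and a further antisense gene there, *Gm39119*, was not analysed here. *Fgf15* coverage was 57.3% to 58.8% of what its FPKM and the library's depth imply.

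**Figure D1:**
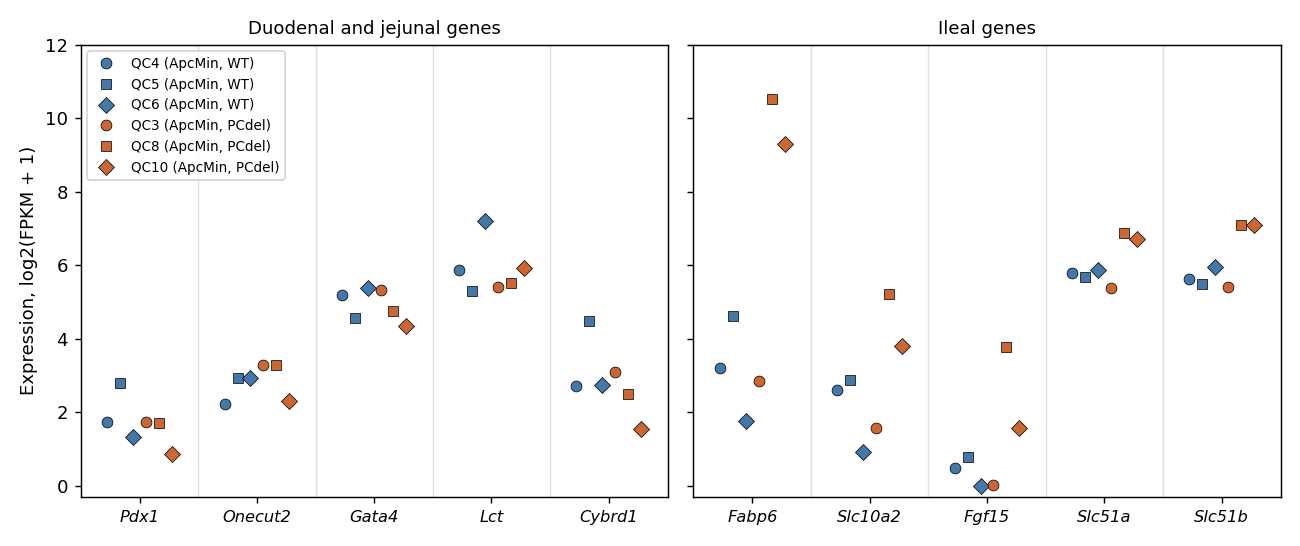
Expression of the 10 regional genes in each adenoma library, as log2(FPKM + 1) on the vertical axis; each point is 1 library, blue for *Apc* Min, WT and orange for *Apc* Min, PC del, with a marker for each library. QC8 and QC10 hold the 2 highest values of all 5 ileal genes, *Fabp6* at 1477 and 630.2 FPKM, and QC3 lies within or below the range of the WT libraries in these 5 genes.

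The proximal genes differed among themselves, and QC8 and QC10 were the 2 lowest libraries in 1 of the 5 (*Cybrd1*), against 2.99% of all genes tested. *Gata4* (ENSMUSG00000021944.15, chromosome 14, 63198922 to 63271692, minus strand), the factor that holds ileal genes low in the jejunum, had an FPKM of 35.3, 22.6 and 40.5 in QC4, QC5 and QC6, and of 38.9, 26.0 and 19.5 in QC3, QC8 and QC10. Its lowest value was in QC10, and the WT library QC5 was lower than QC8. Means were 28.1 ± 9.84 FPKM in PC del and 32.8 ± 9.21 FPKM in WT (n = 3 each, exact permutation p = 0.7), a log2 difference of −0.23 (SE 0.30, interval −0.94 to 0.49). It was −0.48 without QC3 and −0.0012 without QC10, and the sign turned with limma's array quality weights, to 0.15. *Gata4* has 6 transcripts in GENCODE, and its deposited coverage was only 5.79% to 7.20% of what its FPKM and the library's depth imply, and how reads were divided among its transcripts is not given in the sources used here. Coverage scaled by depth, in FPKM units, was 2.26, 1.63 and 2.34 in QC4, QC5 and QC6 and 2.41, 1.58 and 1.37 in QC3, QC8 and QC10. By coverage QC8 lay below QC5, the reverse of their order by FPKM, so that QC10 and QC8 were the 2 lowest libraries.

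*Pdx1* (ENSMUSG00000029644.7, chromosome 5, 147269959 to 147275848, plus strand), a factor of the duodenum and pancreas, had an FPKM of 2.31, 5.99 and 1.5 in QC4, QC5 and QC6, and of 2.33, 2.27 and 0.836 in QC3, QC8 and QC10. *Onecut2* (ENSMUSG00000045991.18, chromosome 18, 64340364 to 64398488, plus strand), another duodenal factor, had an FPKM of 3.68, 6.71 and 6.59 in QC4, QC5 and QC6, and of 8.68, 8.74 and 3.94 in QC3, QC8 and QC10. *Pdx1* was highest in QC5 and lowest in QC10, whereas *Onecut2* was highest in QC8, a library with high ileal genes. The log2 difference between genotypes was −0.51 for *Pdx1* (SE 0.42, interval −1.51 to 0.48), with means of 1.81 ± 0.846 FPKM in PC del and 3.26 ± 2.39 FPKM in WT. For *Onecut2* it was 0.25 (SE 0.32, interval −0.52 to 1.03), with means of 7.12 ± 2.76 and 5.66 ± 1.72 FPKM (exact permutation p = 0.5 for either gene, n = 3 each). The difference of *Pdx1* was −0.08 without QC5, and that of *Onecut2* was 0.02 without QC4 and 0.58 without QC10. GENCODE lists the antisense gene *Plut* over *Pdx1*, which was not analysed here.

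*Lct* (ENSMUSG00000026354.8, chromosome 1, 128284756 to 128328318, minus strand) was the most abundant proximal gene, with an FPKM of 57.5, 38.2 and 146.9 in QC4, QC5 and QC6, and of 41.3, 44.8 and 60.1 in QC3, QC8 and QC10. QC6 stood apart with the highest value, QC10 was the second highest, and QC8, with the highest values of all 5 ileal genes, was below QC6, QC10 and QC4. Means were 48.7 ± 10.04 FPKM in PC del and 80.9 ± 58.0 FPKM in WT (n = 3 each, exact permutation p = 0.7). The log2 difference of −0.51 (SE 0.46, interval −1.62 to 0.60) became 0.037 without QC6.

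*Cybrd1*, the ferric reductase (ENSMUSG00000027015.4, chromosome 2, 71117923 to 71142926, plus strand), had an FPKM of 5.64, 21.4 and 5.72 in QC4, QC5 and QC6, and of 7.49, 4.62 and 1.93 in QC3, QC8 and QC10. QC10 and QC8 were the 2 lowest libraries, below every WT library, whereas they were the 2 highest in the ileal genes. The order of the other libraries was not reversed. QC5 was the highest, and QC3 lay above 2 of the 3 WT libraries. Means were 4.68 ± 2.78 FPKM in PC del and 10.9 ± 9.07 FPKM in WT (n = 3 each, exact permutation p = 0.4), a log2 difference of −0.95 (SE 0.57, interval −2.32 to 0.43) that was −0.36 without QC5.

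Counted together, 3 of 5 proximal genes (*Pdx1*, *Gata4* and *Cybrd1*) were lowest in QC10, against 13.0% of all genes tested. QC3 lay between the lowest and the highest WT library in 7 of the 10 genes, below the WT libraries in 2 (*Slc51a* and *Slc51b*) and above them in 1 (*Onecut2*). The median log2 difference was 1.11 for the 4 ileal genes other than *Fgf15*, −0.51 for the 5 proximal genes and 0.04 for all genes tested.

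A proximal score and a distal score, each the mean log2(FPKM + 1) of 5 genes, were computed for each library. The distal score was 3.55, 3.90 and 2.90 in QC4, QC5 and QC6, and 3.05, 6.70 and 5.70 in QC3, QC8 and QC10. The proximal score was 3.55, 4.02 and 3.92 in QC4, QC5 and QC6, and 3.76, 3.55 and 3.0 in QC3, QC8 and QC10. The distal scores of QC8 and QC10 lay well above the others, and the proximal scores covered a narrower range, lowest in QC10. Their difference, the regional index (proximal minus distal), was 0.00, 0.12 and 1.01 in QC4, QC5 and QC6, and 0.71, −3.15 and −2.69 in QC3, QC8 and QC10. Its mean was −1.71 ± 2.11 in PC del and 0.38 ± 0.55 in WT (SD, n = 3 each), a difference of −2.09. This difference was −3.30 without QC3, −1.37 without QC8 and −0.20 with the other proximal and distal lists in place of the 10 genes, and turned to 0.34 with QC8 and QC10 left out. With *Fgf15* left out of the distal score, the index was −0.76, −0.66 and 0.29 in QC4, QC5 and QC6, and −0.04, −3.88 and −3.73 in QC3, QC8 and QC10, a difference of −2.17. The last 2 alternatives were added after the data were seen. The SD of the index of the 10 genes within PC del (2.11) was about as large as its difference between the genotypes (−2.09).

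**Figure D2:**
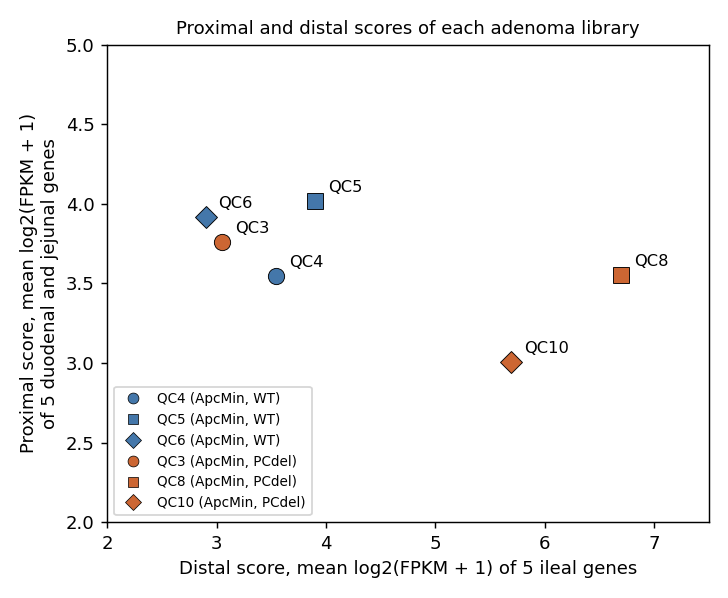
Proximal score against distal score of each adenoma library, each the mean log2(FPKM + 1) of 5 genes; each point is 1 library, blue for *Apc* Min, WT and orange for *Apc* Min, PC del. QC8 and QC10 lie at distal scores of 6.70 and 5.70, and QC3 at 3.05 lies among the WT libraries, which span 2.90 to 3.90.

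Genes of the Paneth cell lineage were read in the same libraries. *Lyz1*, encoding lysozyme, had an FPKM of 1672, 2229 and 2281 in QC4, QC5 and QC6 and of 950.3, 1148 and 1082 in QC3, QC8 and QC10. The α-defensin gene *Defa21* had an FPKM of 129.2, 351.8 and 240.5 in QC4, QC5 and QC6 and of 35.4, 20.2 and 28.0 in QC3, QC8 and QC10. *Wnt3* had 1.86, 2.62 and 1.41 in the WT libraries and 0.852, 0.937 and 1.16 in the PC del libraries. In these 3 genes QC3 lay below every WT library, as QC8 and QC10 did, and groups did not overlap in 7.54% of all genes tested. The paper names all 3 as low in PC del adenomas from this sequencing, so their choice was not independent of these values. None passed the threshold (limma adjusted p = 0.979 for *Lyz1*, 0.309 for *Defa21* and 1.0 for *Wnt3*). *Mmp7*, encoding the protease that activates α-defensins, differed from them, with 456.0, 493.5 and 234.0 in QC4, QC5 and QC6 and 279.2, 328.8 and 365.9 in QC3, QC8 and QC10. There the WT library QC6 was lowest and all PC del libraries lay within the WT range.

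Other genes of the ileum and of bile acid handling gave a mixed picture. None of the 4 other distal genes tested (*Cubn*, *Amn*, *Nr1h4* and *Clec2h*) and none of the 5 bile acid genes tested passed the adjusted threshold in limma or had an unadjusted p under 0.05. *Nr1h4*, encoding FXR, had an FPKM of 16.5, 15.1 and 10.4 in QC4, QC5 and QC6 and of 13.2, 24.3 and 24.7 in QC3, QC8 and QC10, so QC8 and QC10 were again highest. *Malrd1*, which promotes the output of Fgf15 protein, had 7.5, 7.78 and 11.99 in the WT libraries and 5.21, 13.4 and 14.4 in the PC del libraries, and was named after its values were seen. *Clec2h* reached 492 in QC10 but was 253.9 in QC8, within the range of 248.8 to 322.7 in WT. *Amn*, a partner of cubilin in ileal vitamin uptake, was highest in QC10 at 32.1 and lowest in QC8 at 9.98. *Cubn*, encoding cubilin, had 4.01, 2.98 and 10.6 in QC4, QC5 and QC6 and 1.18, 3.30 and 5.59 in QC3, QC8 and QC10, highest in the WT library QC6 (log2 difference −0.63). The FXR partner *Rxra* (19.7 to 24.4 FPKM) and the exporter *Abcc2* (14.1 to 30.7 FPKM) did not follow *Fabp6*, with *Abcc2* lowest in QC8 and highest in QC3. The median log2 difference was 0.04 for the other distal genes and 0.02 for the bile acid genes.

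Among the distal gut hormones, *Pyy* had an FPKM of 3.43, 5.51 and 3.94 in QC4, QC5 and QC6, and of 4.14, 9.80 and 13.2 in QC3, QC8 and QC10. *Nts* had 4.74, 5.69 and 7.60 in the WT libraries, and 3.70, 8.29 and 23.3 in QC3, QC8 and QC10. *Gcg*, the precursor of glucagon-like peptides, had 5.71, 5.92 and 10.3 in the WT libraries, and 5.24, 6.94 and 18.3 in QC3, QC8 and QC10. All 3 were highest in QC10, and QC8 was next in *Pyy* and *Nts*, while the colonic hormone *Insl5* was listed at 0 in all 6 libraries. The proximal hormones *Gip*, *Sct* and *Cck* were highest in the WT library QC6, at 61.5, 20.4 and 23.5 FPKM. None of the 3 distal and 4 proximal hormones tested passed the adjusted threshold in limma or an unadjusted p of 0.05, and their median log2 differences were 0.56 and −0.07.

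Other proximal genes were also compared between the genotypes. Of 13 tested, 12 had a negative log2 difference, with a median of −0.20, against 36.9% of all genes tested, and none passed the adjusted threshold in limma or an unadjusted p of 0.05. Without QC6, 6 of the 13 had a negative difference, against 50.6% of all genes, and the median was 0.06. Their 3 most abundant genes encode lipid and vitamin A carriers and were highest in QC6, *Apoa4* at 7440 FPKM against 1403 to 2436 in the other libraries, *Rbp2* at 4690 against 2078 to 2664, and *Fabp1* at 3626 against 1082 to 2016. *Fabp1* had its lowest values in QC8 (1082) and QC10 (1185), whereas the lowest *Apoa4* value was in QC4 and the lowest *Rbp2* value in QC8. Of 7 iron genes measured, none passed either threshold, and their median log2 difference was −0.02. The most abundant of them, the ferritin chain *Ftl1*, the transferrin receptor *Tfrc* and the iron oxidase *Heph*, ranged from 587.7 to 690.1, from 54.8 to 70.4 and from 40.8 to 53.5 FPKM. *Slc40a1*, the iron exporter, was highest in QC5 at 30.9 FPKM and lowest in QC10 at 8.79, as was *Cybrd1*, and was named after its values were seen. The regional index computed from the other proximal and distal lists was 1.92, 2.23 and 2.47 in QC4, QC5 and QC6, and 2.65, 2.03 and 1.35 in QC3, QC8 and QC10. It also took in the proximal gene *Trpv6* and the distal gene *Nr0b2*, which were below the filter and did not exceed 0.165 and 0.423 FPKM. On this index QC10 was lowest and QC8 lay within the WT range, whereas on the index of the 10 genes QC8 was lowest.

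Among the fatty acid binding proteins, *Fabp6* was set beside *Fabp1* and *Fabp2*, the other 2 examined. It came to 0.434%, 1.78% and 0.0660% of *Fabp1* FPKM in QC4, QC5 and QC6, against 0.307%, 136% and 53.2% in QC3, QC8 and QC10. *Fabp2*, the intestinal form, had an FPKM of 1826, 2023 and 3127 in QC4, QC5 and QC6 and of 1145, 947.2 and 3509 in QC3, QC8 and QC10, so QC8 was lowest and QC10 highest. The broad gut factors *Hnf4a*, *Klf5* and *Cdx1* ranged from 227.2 to 291.1, from 74.1 to 110.2 and from 44.8 to 71.5 FPKM.

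Markers of neighbouring tissues were examined in the same libraries. Of the stomach list, *Gkn3*, *Gkn1* and *Tff1* were abundant, although *Muc5ac* and *Sox2* did not exceed 0.561 and 0.0415 FPKM. *Tff1* had an FPKM of 105.1, 103.6 and 24.3 in QC4, QC5 and QC6, and of 79.8, 29.3 and 8.72 in QC3, QC8 and QC10. *Tff2*, of Brunner glands and pylorus, had an FPKM of 282.3, 118.0 and 39.1 in QC4, QC5 and QC6, and of 292.4, 190.0 and 8.56 in QC3, QC8 and QC10. *Muc6*, of the same glands, ranged from 7.22 in QC10 to 30.6 in QC3. *Gkn3*, *Gkn1*, *Tff1*, *Tff2* and *Muc6* were all lowest in QC10, against 13.0% of all genes tested. For *Gkn3* the margin was small, with an FPKM of 339.0 in QC10 and 341.3 in QC6. *Gkn2* and, below the filter, *Muc5ac* and *Gif* were also lowest in QC10, whereas *Sox2*, likewise below the filter, was highest there. *Pdx1*, *Gata4* and *Cybrd1* were lowest in the same library. In QC8, however, *Tff2* and *Muc6* lay above 2 and 3 of the WT libraries. Summed over the stomach list, FPKM came to 734.6, 528.0 and 402.5 in QC4, QC5 and QC6, against 1086, 665.5 and 371.8 in QC3, QC8 and QC10. Most of each sum was *Gkn3* alone, at 493.7, 367.5 and 341.3 in QC4, QC5 and QC6 and 876.1, 591.9 and 339.0 in QC3, QC8 and QC10. Of the colon list, *Car1* was listed at 0 in every library and *Hoxb13* did not exceed 0.175 FPKM, and 5 of 7 exocrine pancreas genes and 2 of 3 islet genes were listed at 0 in every library. None of the 6 stomach, Brunner gland and pylorus genes tested passed the adjusted threshold in limma or an unadjusted p of 0.05.

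**Figure D3:**
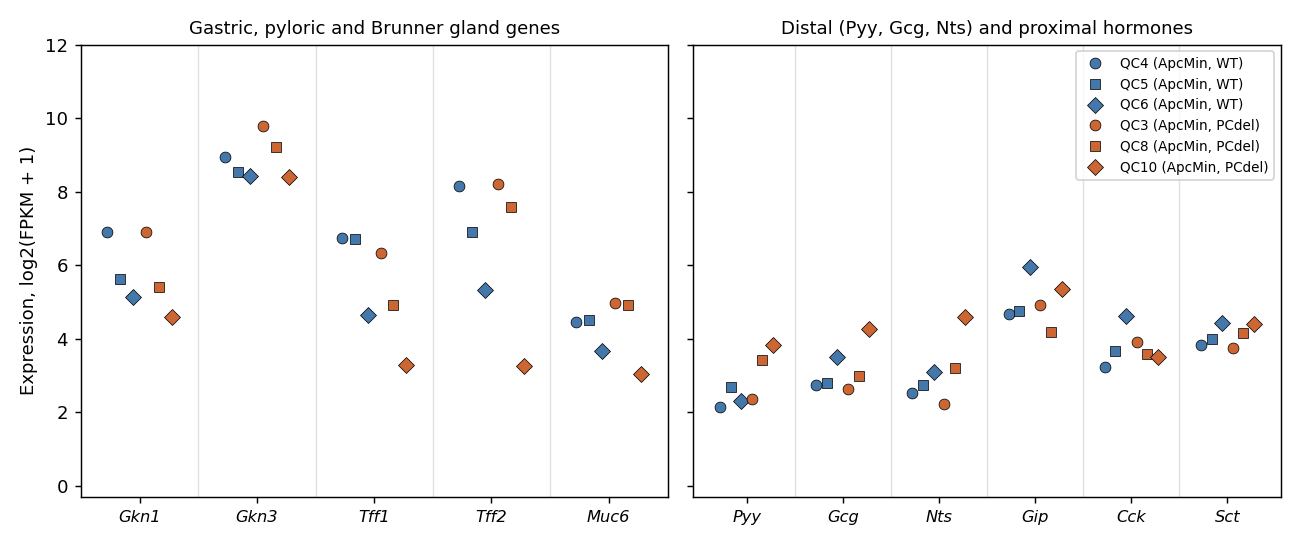
Expression of gastric, pyloric and Brunner gland genes (left) and of distal and proximal gut hormones (right) in each adenoma library, as log2(FPKM + 1); each point is 1 library, blue for *Apc* Min, WT and orange for *Apc* Min, PC del. QC10 is lowest in the 5 genes on the left, *Tff2* at 8.56 FPKM, and highest in *Pyy*, *Gcg* and *Nts*.

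Markers of epithelium and of mature enterocytes were summed in each library. Summed over 6 epithelial markers, of which *Krt8* was the most abundant, FPKM came to 5681, 5820 and 4239 in QC4, QC5 and QC6. In QC3, QC8 and QC10 it came to 4668, 5444 and 5980. The sum of 9 mature enterocyte markers, led by *Krt20*, was 2603, 2772 and 4133 in QC4, QC5 and QC6, and 2980, 2700 and 3337 in QC3, QC8 and QC10. The epithelial sum ran in the order of *Fabp6* in 5 libraries, with QC8 out of that order, below QC10, QC5 and QC4. QC6 was lowest in this sum and highest in that of the enterocyte markers, and it was also the library with the most *Lct*. With the libraries centred on the 6 epithelial genes, the log2 difference was 4.345 for *Fabp6*, 1.37 for *Slc10a2* and 1.34 for *Fgf15*. It was 0.54 for *Slc51a* and 0.82 for *Slc51b*. Without centring these differences were 4.36, 1.39, 1.36, 0.55 and 0.84. Beyond this, the part of these markers in the regional differences was not tested.

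Over the 6 libraries, the genes whose log2(FPKM + 1) was most like that of *Fabp6* were *Mtif3*, *Efnb1*, *Eed*, *Ripply1* and *Tmigd1*, with Pearson r of 0.984 to 0.977. *Tmigd1* had an FPKM of 5.81, 7.21 and 1.21 in QC4, QC5 and QC6, and of 1.86, 61.8 and 29.0 in QC3, QC8 and QC10, the same order as *Fabp6*. The others spanned much less, *Mtif3* from 7.37 to 20.4, *Efnb1* from 25.3 to 31.0 and *Eed* from 41.7 to 46.9 FPKM. *Ripply1* was low, at 0.608 to 2.11 FPKM. The other ileal genes had an r of 0.944 for *Slc10a2*, 0.92 for *Slc51a*, 0.915 for *Fgf15* and 0.896 for *Slc51b*. In that order, 50, 102, 116 and 163 genes were more like *Fabp6* than these. By rank of the libraries, Spearman rho with *Fabp6* was 1.0 for *Slc10a2* and *Fgf15* but 0.6 for *Slc51a* and *Slc51b*. For *Gata4* the closest genes were *Tmem56*, *Mtcp1*, *Uso1*, *Pcmt1* and *Nadk2*, with r of 0.982 to 0.97. Their ranges were also narrow, 2.10 to 3.57 for *Tmem56*, 1.06 to 1.47 for *Mtcp1* and 32.7 to 39.2 FPKM for *Uso1*. *Pcmt1* had 17.85 to 21.1 and *Nadk2* 10.2 to 15.25 FPKM. *Gata4* and *Fabp6* had an r of −0.77, and 13600 genes were more like *Gata4* than *Fabp6* was. These values describe 6 libraries that include the same 2 with high ileal genes, and carry no test.

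Promoter sequences were read because all 5 ileal genes had their 2 highest values in QC8 and QC10. A further reason was that FXR binds inverted repeats of AGGTCA with 1 base between the copies. RefSeq promoters of GRCm38.p6 were read for 7 of the 10 genes (*Pdx1*, *Lct*, *Cybrd1*, *Fabp6*, *Slc10a2*, *Slc51a* and *Slc51b*). The chromosome of *Onecut2* was left out of this reading, and *Gata4* and *Fgf15* were not among the promoters read either. The start is that of RefSeq, which differs from the gene positions given above for some genes, and the windows of *Pdx1*, *Cybrd1* and *Slc10a2* run into the gene as the files place it. Within the 250 bases before the start, *Fabp6* held 2 such repeats with up to 2 mismatches, AGGTGAATGACCA and AGGTGAATAACCT, beginning 222 and 142 bases before the start. Such a repeat, searched on both strands, was found in 0.959% of 32851 promoters and in none of the other 6 promoters read. *Fabp6* also held CATAAA, the reverse complement of the CDX-type motif TTTATG, 111 bases before the start, and *Slc10a2* held TTTATG 122 bases before it. *Lct* held the GATA-type motif AGATAA at 90 bases, its reverse complement TTATCT at 101 bases and CATAAA at 31 bases before the start. On either strand AGATAA was found in 9.99% and TTTATG in 10.8% of all promoters, and no printed match overlaps another. *Pdx1*, *Cybrd1*, *Slc51a* and *Slc51b* held none of these letters in this window. A match is a description, not a site or a cause. The 250 bases are shown for *Fabp6* (chr11:43601563-43601812, minus strand), the ileal gene with the highest FPKM in QC8 and QC10, and *Lct* (chr1:128328319-128328568, minus strand), a proximal gene for contrast, with the motifs in capitals.
Fabp6: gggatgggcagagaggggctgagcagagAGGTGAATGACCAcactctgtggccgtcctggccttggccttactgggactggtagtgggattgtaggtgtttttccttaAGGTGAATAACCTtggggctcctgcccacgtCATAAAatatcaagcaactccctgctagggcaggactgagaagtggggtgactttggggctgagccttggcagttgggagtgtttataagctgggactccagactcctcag
Lct: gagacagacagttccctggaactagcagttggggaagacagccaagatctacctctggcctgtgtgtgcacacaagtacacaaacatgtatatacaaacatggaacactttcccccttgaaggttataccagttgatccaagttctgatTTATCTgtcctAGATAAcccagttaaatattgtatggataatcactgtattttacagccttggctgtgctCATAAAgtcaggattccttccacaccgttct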

How the data were processed

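RNA of small intestinal adenomas was sequenced by the authors from TruSeq RNA libraries on a HiSeq2500. Deposited values per gene include FPKM, already scaled for transcript length and library size. The authors also gave TPM, which the authors scaled to total 1000000 in every library, and mean read coverage, a signal that the authors left unscaled. The paper's methods name CLC Genomics Workbench 7 and a normalization in MatLab, which was not repeated. The program and annotation behind the gene tables are not given in the sources used here. Positions of 7 of the 10 genes equal those in GENCODE's annotation of GRCm38, and *Onecut2*, *Slc51a* and *Slc51b* differ from it at an end or both.

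Entries of 1 gene were summed, giving 48440 genes. Library depth was taken from coverage, as a high percentile of its ratio to FPKM among entries above 1 FPKM. Read numbers were not derived, so no counting interval is given. Genotypes were compared on log2(FPKM + 1) by the moderated test of limma 3.58.1 (R 4.3.3, eBayes with a trend), which took in 14240 genes whose mean FPKM reached 1. Its p-values were adjusted by Benjamini-Hochberg, at a threshold of 0.05. For single genes, an exact two-sided permutation test was run on FPKM, which can give no p below 0.1. Scores over genes were given no p-value. Tables and figures used Python 3.11.15, pandas 2.3.3, numpy 2.4.6, scipy 1.17.1 and matplotlib 3.10.9. The gene fit was tested on simulated data. Overlapping genes and transcript numbers came from GENCODE's mouse annotation of GRCm38, and promoters from RefSeq.

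The genes named are the 10 regional genes, the genes of the lists whose groups do not overlap or whose unadjusted limma p is under 0.05, up to 3 of the most abundant genes of a list, and the 5 genes most like *Fabp6* and *Gata4*. Not every gene that meets this rule is reported here. The members and lists were chosen with earlier results of these data known. Alternatives included TPM, quantile normalization, median centring, array quality weights, a pseudocount of 0.1, no filter, a filter at 5 FPKM, no trend in eBayes, centring on 6 epithelial genes, other gene lists for the index and each library left out in turn. Scaled coverage, the regional index as a covariate, a distal score without *Fgf15* and leaving out QC8 and QC10 together were added after seeing the data.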

Additional observations from a re-analysis of the deposited data

How the results depend on the processing

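Over the alternatives that can change a fold and were listed before any were added, 118 of 120 log2 differences of the 10 genes kept their direction (the filters and the trend leave a fold as it is), and none of the 10 genes passed the adjusted threshold in limma in the alternatives that were run for single genes (adjusted p from 0.251 to 1.0), which did not include the regional index as a covariate. The exceptions were *Gata4* with array quality weights (0.15) and *Lct* without QC6 (0.037; range over single libraries left out, −0.92 to 0.037). Leaving out each library in turn moved *Fabp6* between 2.88 and 6.72, *Slc10a2* between 0.55 and 2.37, *Fgf15* between 0.37 and 2.24, *Slc51a* between 0.28 and 1.02, and *Slc51b* between 0.55 and 1.40, each highest without QC3 and lowest without QC8. With QC8 and QC10 left out together, chosen after seeing the data, 1 PC del library remains, assumed to vary like the WT libraries, and the differences were −0.35 for *Fabp6*, −0.57 for *Slc10a2*, −0.41 for *Fgf15*, −0.39 for *Slc51a*, −0.29 for *Slc51b* and 0.28 for *Gata4*. With array quality weights, *Lct* was −0.0043, *Slc10a2* 0.63, *Fabp6* 2.82 and *Pdx1* −0.87. The distal score difference without QC8 and QC10 was −0.40 and that of the index 0.34, and with the other gene lists the index difference was −0.20. Leaving out single libraries moved the index difference between −3.30 and −1.37. Over all genes, 2 passed the threshold, against 1 with no filter, median centring, the epithelial reference or, added after seeing the data, the regional index as a covariate, 3 with array quality weights, and 1 to 5 with a library left out (5 without QC4). Counts at an unadjusted limma p under 0.05 were 481 (79.8% higher in PC del), 976 with no filter, 260 with a minimum of 5, 309 (69.6% higher) with the epithelial reference, 1270 (63.5%) with array weights and 820 (59.4%) without QC6. The share that was higher was 58.9% with quantile normalization, 61.4% with median centring, 63.9% with the regional index as a covariate and 88% with TPM. The causes were not tested. No paired analysis was possible because the labels give the genotypes no shared replicate numbers. Depth differed little between libraries, and low values such as those of *Fgf15* outside QC8 and QC10 have no counting interval, since the values are not counts. The position of each adenoma and the genotype cannot be told apart with these labels.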

Other observations

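Markers of other cell types were also compared between the genotypes, and none passed the adjusted threshold in limma. Of 4 Paneth cell genes, 3 had groups that did not overlap and an unadjusted limma p under 0.05. The shares of all genes tested were 7.54% and 3.38%. These 3 were *Lyz1*, *Defa21* and *Defa22*, with log2 differences of −0.95, −2.98 and −2.77 (limma adjusted p = 0.979, 0.309 and 0.309). The paper names the same 3 genes as low in PC del adenomas from this sequencing, so the count is no independent support. *Defa21* and *Defa22* also had close FPKM values in each library. Of 3 fibroblast genes, 1 (*Pdgfra*, against the same shares of all genes) had groups that did not overlap, with a log2 difference of 0.62 (limma adjusted p = 1.0) and an unadjusted p under 0.05. No gene among 6 adenoma and stem cell markers, 4 goblet cell, 4 smooth muscle, 3 leukocyte and 2 liver genes tested had an unadjusted limma p under 0.05, and their median log2 differences were 0.16, −0.01, 0.30, 0.14 and 0.36. Summed FPKM of the adenoma and stem cell markers, led by *Notum*, was 221, 182.7 and 110.5 in QC4, QC5 and QC6 and 167.1, 216.5 and 189.8 in QC3, QC8 and QC10, lowest in the WT library QC6. Over all 14240 genes, the 2 that passed the adjusted threshold in limma were *Hist2h2aa1*, with a log2 difference of 3.77, and *Rab43*, with −2.37 (adjusted p = 0.00132 and 0.0109), named after their values were seen.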
